A study of Mus musculus with 18 samples.

Results

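Nuclei of the embryonic mouse forebrain that carried RNA of Prox1 or Adarb2 together with a gene of inhibitory neurons are described here across wild type, heterozygous and knockout embryos. A nucleus was taken when it had at least 1 count of Prox1 or Adarb2, at least 2 of the 6 genes Prox1, Adarb2, Nr2f2, Zbtb16, Brinp3 and Pdzrn3, at least 1 of Gad1, Gad2 and Dlx6os1, and less than 1 count of each of Lhx6, Nxph2, Neurod2, Neurod6, Top2a, Ebf1 and Six3. Some deposited counts are not whole, so members could hold a count under 1 of these 7 genes (Ebf1 was at up to 1.69 CPM, counts per 1000000, in the expression groups described below). Of 261143 deposited barcodes, 201952 lay within the limits of 800 to 6000 unique molecular identifiers (UMIs), 300 to 3000 genes and at most 1% mitochondrial UMIs, and 5448 of these met the rule. The rule was written for interneurons of the caudal ganglionic eminence (CGE), but the genes outside it bore out that name for some of the nuclei only, so they are called Prox1/Adarb2 nuclei below.

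Forebrains were taken at embryonic day 14 (E14) from WT, Het and KO embryos, 3 per genotype, and the RNA of single nuclei was sequenced in 2 runs per embryo, with barcodes added to fixed nuclei over rounds of pooling and splitting. The line carries the MYT1L S710fsX allele, a frameshift in Myt1l, a zinc finger transcription factor of neurons, on a C57BL/6 background; Het embryos have 1 mutant copy and KO embryos have 2. The allele is constitutive, so every cell of a Het or KO embryo carries it and no cell type was targeted. The embryo was the replicate (n = 3 per genotype), with its runs summed, and it is named by genotype and replicate number.

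The CGE is a transient proliferative bulge at the back of the ventral forebrain. Its newborn GABAergic neurons migrate tangentially into the cortex, hippocampus and amygdala and mature into the Vip, Lamp5 and other interneurons that carry the serotonin receptor Htr3a. The transcription factors Prox1, Nr2f2 and Sp8 are used to tell them from interneurons of the medial ganglionic eminence (MGE), which depend on Lhx6, and from the projection neurons of the striatum, which express Ebf1, Foxp1 and Meis2.

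The number of Prox1/Adarb2 nuclei per embryo was 628, 615 and 537 in WT, 693, 518 and 603 in Het, and 368, 772 and 714 in KO. Their UMIs summed to between 1080940 and 2094924 per embryo, and the median nucleus had 2527 UMIs and 1481.5 genes. In run 1 the separate genotype label reads WT for all 9 libraries, against the titles, which were followed here. Xist RNA was at 394 CPM (counts of a gene scaled to a total of 1000000 per embryo) in the Prox1/Adarb2 nuclei of WT 3 and at most 2.03 CPM in the 8 other embryos. RNA of the Y-linked genes Ddx3y, Uty, Eif2s3y and Kdm5d summed to 5.23 CPM in WT 3 and 466 to 616 CPM elsewhere. By these genes WT 3 read as female and the other embryos as male, whereas the series describes both sexes in every genotype. The genotype tests carried no term for sex. Markers of microglia and blood summed to at most 9.0 and 9.5 CPM in any embryo, and those of vessels to 4.7 to 13.7 CPM in WT, 9.5 to 15 CPM in Het and 7.4 to 11.9 CPM in KO. 1 barcode was shared by members of 2 libraries, and 107 members had a barcode that another nucleus within the limits also carried.

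Adarb2, the gene of an RNA-editing family protein without known editing activity, was the gene that brought in most nuclei. It was detected without Prox1 in 3469 members, Prox1 without Adarb2 in 551, and both in 1428. Just inside the threshold, 3044 members had exactly 2 of the 6 genes, with Nr2f2 in 29.6% of them. Just outside it, 6397 nuclei met every other condition with 1 of the 6 genes, which was Adarb2 in 89.3% and Prox1 in 10.7%. The exclusion of 7 genes took the set from 13796 to 5448 nuclei, and Top2a, a gene of dividing cells, was present in 3823 of those that met the rest. These detection values were selected on and are given as a description.

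The genes outside the rule bore out the CGE name in part. Sp8, a transcription factor of the CGE and olfactory lineages, stood at 28.5 ± 4.8 CPM (SD, n = 9) in the Prox1/Adarb2 nuclei, against 1.8 ± 1.2 CPM in inhibitory nuclei with Lhx6 or Nxph2 and 10.2 ± 3.2 CPM in inhibitory nuclei with Ebf1 or Six3. These comparison sets had less than 1 count of Prox1 and of Adarb2 by construction and held 7601 and 5611 nuclei. Synpr, a synaptic vesicle protein, was at 111 ± 28 CPM against 10.1 ± 3.7 and 27.9 ± 17.4 CPM, and the chemokine gene Cxcl14 at 17.0 ± 8.1 CPM against 0.2 ± 0.3 and 1.9 ± 1.0 CPM. Of the 14 CGE markers listed outside the rule, 7 reached 10 CPM in either set, and 5 of those were higher in the Prox1/Adarb2 nuclei than in the Lhx6 or Nxph2 nuclei in 9 of 9 embryos. Sp9 was lower in 9 of 9, at 49.1 ± 11.4 against 99.4 ± 21.9 CPM, and Npas1 did not separate these sets, at 23.9 ± 6.7 against 27.8 ± 6.5 CPM. Vip, Lamp5 and Cck, which mark mature CGE interneurons, lay under 1 CPM.

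The frequencies of the genes of the rule were set in part by the selection, since members needed 2 of the 6 and the comparison sets did not, and they are given as a description. Zbtb16, a zinc finger transcription factor, was detected in 21.8% of the Prox1/Adarb2 nuclei and in 21.8% of the Lhx6 or Nxph2 nuclei, at median depths of 2527 and 2296 UMIs, and in 1.92% of the Ebf1 or Six3 nuclei at 2478 UMIs. Brinp3 was found in 30.1%, 20.8% and 7.11% of the same sets. Nr2f2, a nuclear receptor of the caudal forebrain, was found in 49.0% against 10.9% and 8.06%. All 12 MGE markers, among them Nxph1, Sst and Maf, were lower in the Prox1/Adarb2 nuclei than in the Lhx6 or Nxph2 nuclei in 9 of 9 embryos, a direction that the rule partly fixes.

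**Figure D1:**
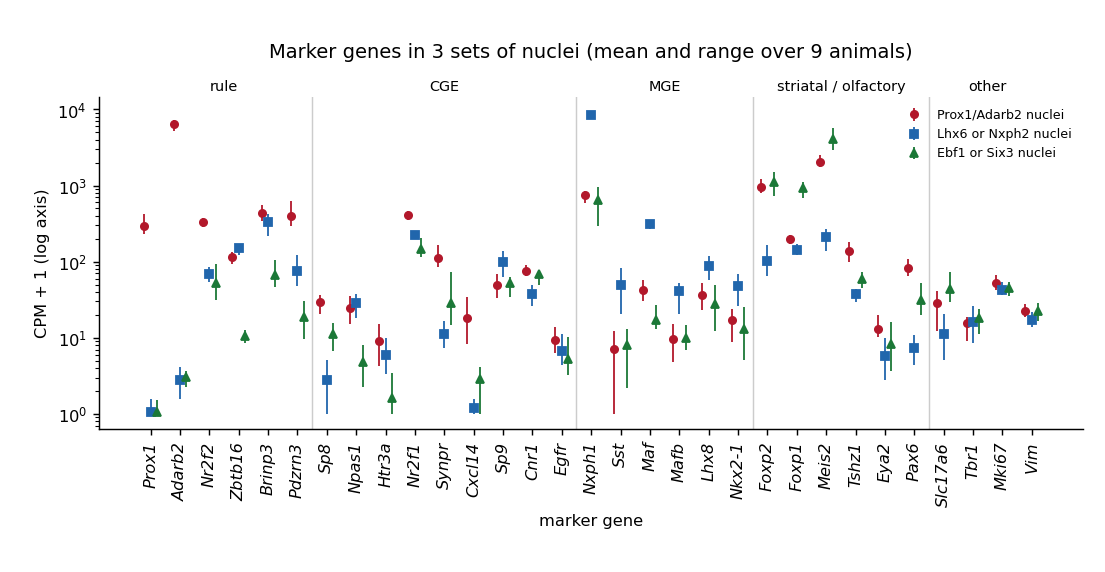
Mean level of 31 marker genes (CPM plus 1, log axis) in the Prox1/Adarb2 nuclei, the Lhx6 or Nxph2 nuclei and the Ebf1 or Six3 nuclei; bars span the lowest to the highest of 9 embryos. Sp8, Synpr and Cxcl14 lie highest in the Prox1/Adarb2 nuclei, and Zbtb16 and Npas1 overlap with the Lhx6 or Nxph2 nuclei. Foxp2 lies near the Ebf1 or Six3 nuclei, and Meis2 lies between the comparison sets.

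Across the rest of the transcriptome, the genes with the largest mean excess over the Lhx6 or Nxph2 nuclei (at least 50 CPM, higher in 9 of 9 embryos, log2 ratio with 1 CPM added) were partly genes of other ventral lineages. Besides Gm48261 and Gm48259, which lie inside Adarb2 on the same strand and so carry the signal of the rule, they were led by Dcdc5 and the eye and olfactory transcription factor Pax6, with mean log2 ratios of 3.54 and 3.53. Meis2, at 2043 against 208 CPM, and Foxp2, at 962 against 99.8 CPM, also belonged to them. Both are transcription factors of striatal and olfactory lineages, and in the Ebf1 or Six3 nuclei they stood at 4143 and 1102 CPM. Over the Ebf1 or Six3 nuclei the largest excess outside the Adarb2 locus was in the secreted ligand Wnt5a, at 81.6 against 8.51 CPM, and in Erbb4, the neuregulin receptor that guides migrating interneurons. Erbb4 stood at 11235 CPM, against 1441 CPM in the Ebf1 or Six3 nuclei and 24305 CPM in the Lhx6 or Nxph2 nuclei. Sox6 had the same order, at 1792, 301 and 3388 CPM. These ratios compare sets that were selected on expression and carry no test.

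Genes of migration and of GABA signalling placed the Prox1/Adarb2 nuclei between the comparison sets or on either side of them. The chemokine receptor genes Cxcr4 and Ackr3, which keep MGE interneurons in their migratory streams, were at 5.7 ± 1.8 and 18.8 ± 3.8 CPM (SD, n = 9), against 23.4 ± 4.9 and 202 ± 19.8 CPM in the Lhx6 or Nxph2 nuclei. The slit receptor Robo1 was at 2682 ± 153 CPM, between 1324 ± 109 CPM in the Lhx6 or Nxph2 nuclei and 3824 ± 318 CPM in the Ebf1 or Six3 nuclei. The chloride exporter Slc12a5, which rises as neurons mature, was at 58.5 ± 11.6 CPM against 26.0 ± 6.3 and 47.4 ± 9.1 CPM, and its importing counterpart Slc12a2 was at 104 ± 13.6 CPM against 65.1 ± 9.1 and 117 CPM. The vesicular GABA transporter Slc32a1 stood at 46.9 ± 12.9 CPM, within the range of both comparison sets.

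Clustering of the 5448 nuclei gave 12 groups, numbered by size and called by their leading genes. In group 1, with 1140 nuclei, Nr3c2, Cntnap5c, Grin2d and Npas1 led, and Npas1, Htr3a, Sp8 and Nr2f1 of the 14 CGE markers were at least 10 CPM and at least 1.5-fold over the other members. Group 10, with 273 nuclei, was led by Rreb1 and Synpr and also had 4 of the 14, namely Htr3a, Sp8, Cxcl14 and Synpr. In group 3, with 608 nuclei led by Tafa1 and Vwc2, these were Htr3a, Cxcl14 and Nr2f1. In group 4, with 505 nuclei led by Thrb and Dcbld2, they were Sp8 and Sp9, beside 3 of the 11 progenitor markers (Cenpf, Vim and Sox2) and Foxp2 and Meis2.

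Other groups carried the markers of other lineages. Group 11, with 271 nuclei, had 11 of the 12 MGE markers raised, with Nxph1 at 6736 CPM against 462 CPM in the other members and the neuropeptide Sst at 78.9 against 2.7 CPM, although none of its nuclei had a count of Lhx6. Group 9, with 274 nuclei, was led by Gbx1 and had Lhx8 at 327 against 15.5 CPM, both transcription factors of ventral subpallial neurons. Group 5, with 443 nuclei, was led by Tshz1, at 943 against 64.9 CPM, and had 5 of the 6 olfactory bulb lineage markers and 6 of the 13 striatal markers raised. Group 2, with 663 nuclei led by Dcdc5 and Zfp804b, had 6 of the 12 diencephalic markers raised, among them Lhx9, Zic1 and Tcf7l2. Group 6, with 373 nuclei led by Edar and Fgf15, had 6 of the 11 progenitor markers raised, and group 7, with 345 nuclei led by the matrix protein gene Tnc, had 8 of 11 together with all 8 excitatory markers. Groups 8 and 12, with 324 and 229 nuclei, were led by Slc9a2 and Cyp26b1 and by Calb1 and Sdc2.

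The makeup of the set differed between embryos. Group 2 made up 15.6, 6.67 and 10.6% of the members in WT 1, 2 and 3, 25.1, 8.49 and 11.9% in the Het embryos, and 18.5, 5.83 and 8.96% in the KO embryos. Replicate 1 was highest in every genotype and replicate 2 lowest. Group 1 made up 17.4, 22.6 and 20.9% in WT, 16.6, 17.2 and 23.7% in Het, and 16.3, 27.6 and 22.4% in KO, and replicate 1 was lowest in every genotype. Group 4 ranged from 4.98% in Het 3 to 16.2% in KO 2. KO 2 also stood apart in the rule genes, with Prox1 in 45.3% of its members (30.5 to 38.6% in the other embryos) and Brinp3 in 22.3% (28.0 to 34.0%). Since counts were summed over the whole set, a different level per nucleus and a different makeup of the set cannot be told apart in the sums.

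**Figure D2:**
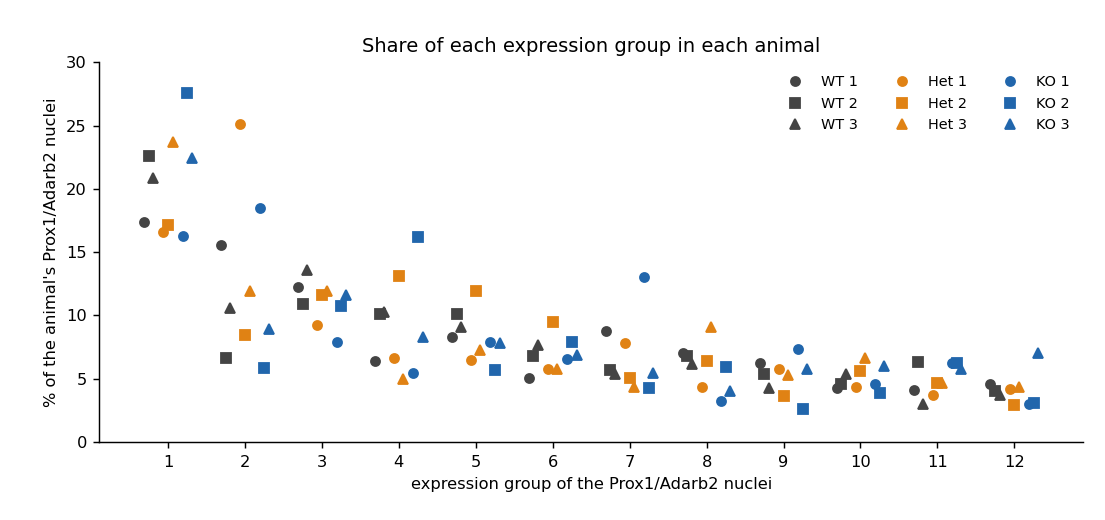
Share of each of the 12 expression groups among the Prox1/Adarb2 nuclei of each embryo (vertical axis, percent; colour, genotype; symbol, replicate number). In group 2 the replicate 1 embryos lie highest in each genotype, at 15.6, 25.1 and 18.5%.

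The share of Prox1/Adarb2 nuclei among all nuclei was compared first, since a loss or gain of the cells would move it. It was 2.66, 2.32 and 2.60% in WT, 2.79, 2.74 and 3.02% in Het, and 2.40, 3.08 and 2.64% in KO. Exact (Clopper-Pearson) 95% intervals were 2.46 to 2.88% for WT 1, 2.14 to 2.51% for WT 2 and 2.87 to 3.30% for KO 2. The intervals cover counting error only, and its part in the spread between embryos was not tested. KO embryos lay within the WT range or, in KO 2, above it, and the means, 2.71 ± 0.34% against 2.53 ± 0.18% (SD, n = 3), did not differ beyond the spread (difference 0.18 percentage points, two-sided exact permutation test, p = 0.5). All 3 Het embryos lay above the highest WT embryo, with a mean of 2.85 ± 0.15% and a difference of 0.32 percentage points, at p = 0.1 in the exact permutation test, the smallest value that 3 against 3 allows. In the stricter sets the Het and WT ranges overlapped, with differences of 0.086 percentage points for at least 3 of the 6 genes (exact permutation test, p = 0.7) and 0.080 for both Prox1 and Adarb2 (exact permutation test, p = 0.5). With every nucleus thinned to 1500 UMIs the Het and WT ranges overlapped (difference 0.34 percentage points, exact permutation test, p = 0.3), whereas in unthinned nuclei of at least 1500 UMIs they did not (0.37 percentage points, p = 0.1). Without the upper limits on UMIs and genes they overlapped (0.24 percentage points, exact permutation test, p = 0.2).

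The runs differed in their shares. In run 1 the mean share was 3.34, 3.56 and 3.14% in WT, Het and KO, and in run 2 it was 2.37, 2.65 and 2.60%. The KO difference was -0.19 percentage points in run 1 and 0.23 in run 2, and the Het difference was 0.22 and 0.28. Among inhibitory nuclei, those with Gad1, Gad2 or Dlx6os1 and without Neurod2 and Neurod6, the share was 8.18, 7.07 and 8.24% in WT, 8.66, 8.75 and 9.11% in Het, and 8.43, 8.32 and 8.48% in KO. Every Het and KO embryo lay above every WT embryo on that denominator, by 1.013 and 0.58 percentage points on average, each at p = 0.1 in the exact permutation test. WT 2 was the lowest embryo, and without it the differences were 0.63 and 0.20 percentage points. With inhibitory nuclei thinned to 1500 UMIs, a setting chosen after seeing the data, the KO embryos still lay above WT (0.75 percentage points, exact permutation test, p = 0.1), while the Het and WT ranges overlapped (1.03 percentage points, p = 0.2).

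**Figure D3:**
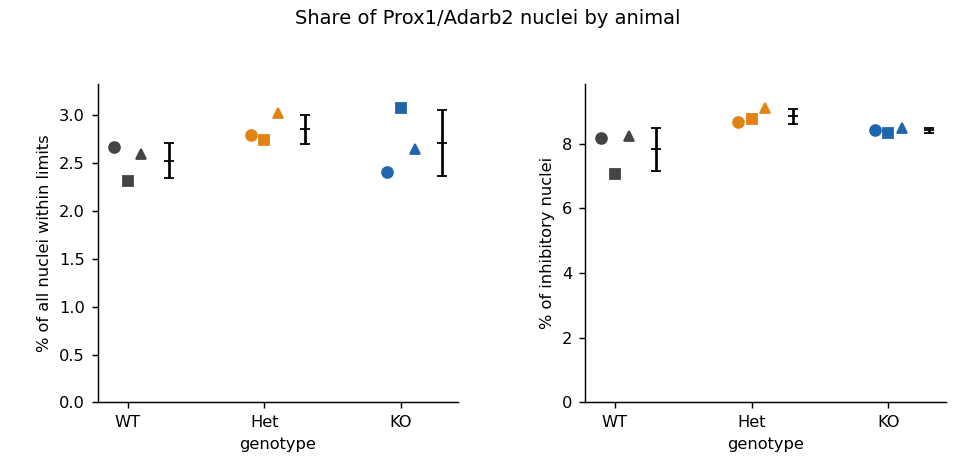
Share of Prox1/Adarb2 nuclei among all nuclei within the limits (left) and among inhibitory nuclei (right) in each embryo, in percent, with mean and SD per genotype and symbols for the replicate number. KO embryos span 2.40 to 3.08% on the left, overlapping WT at 2.32 to 2.66%, and 8.32 to 8.48% on the right.

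RNA of Myt1l itself, the mutated gene, was present in every embryo. Its level was 1492, 1495 and 1488 CPM in the WT embryos, 1513, 1617 and 1654 CPM in the Het embryos, and 1772, 1713 and 1817 CPM in KO. All KO embryos lay above all Het embryos, and all Het embryos above all WT embryos. The KO excess of 0.27 on the log2 scale (SE 0.08) did not pass the test across all genes (edgeR quasi-likelihood test, Benjamini-Hochberg adjusted p = 0.885), and it was 0.12 in the nuclei with both Prox1 and Adarb2. RNA level is no check of the labels for this allele, since the frameshift is not read out by gene counts.

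In the fit by genotype only, no gene passed the test between KO and WT. Of 11408 genes tested, 0 (0%) had an adjusted p under 0.05 and a log2 fold change beyond 0.2 in edgeR, while 567 (4.97%) had an unadjusted p under 0.05, 287 higher and 280 lower in KO. DESeq2, run without the filter on low counts on 31257 genes, called 0 as well, with 222 at an unadjusted p under 0.05. The lowest adjusted p was that of Slc9a9, at 0.133. The median log2 change over all tested genes was -0.0017. WT and KO embryos of the same replicate number correlated in their deviations from the genotype means at 0.32, 0.156 and 0.102. WT 3 and KO 2 correlated at 0.121, and WT 3 and Het 3 at 0.067. By the rule used here (every r over 0.1) this pairs WT with KO. What the replicate number stands for is not stated, so the fit with a block on it is given as an alternative. The SEs below are from the fit without the block. Blocked by replicate number, the fit of all 9 embryos gave 854 genes (7.49%) at an unadjusted p under 0.05. It called 5 (0.0438%), Slc9a9, Phf21a, Hs3st4 and Wls higher and Gm32647 lower in KO.

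**Figure D4:**
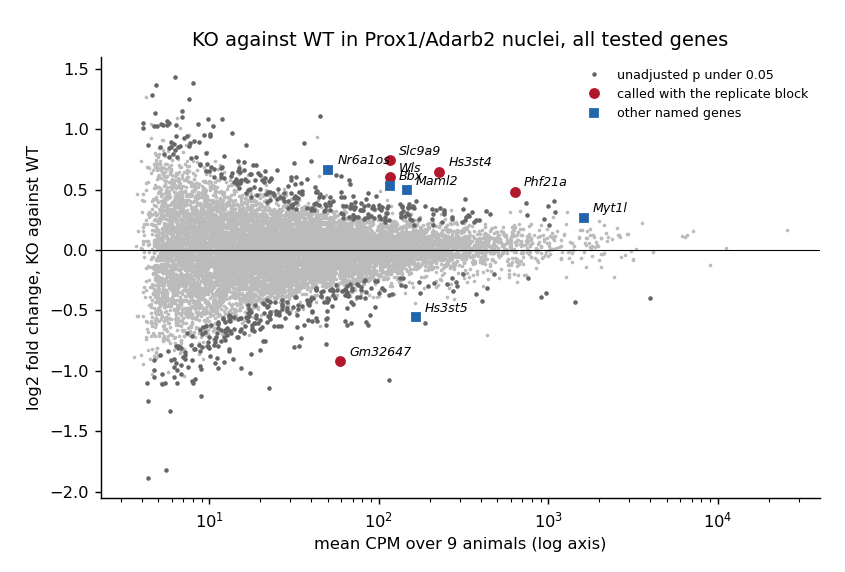
Log2 fold change of KO against WT (vertical axis) by mean level over 9 embryos (CPM, log axis) for the 11408 tested genes in Prox1/Adarb2 nuclei; dark points have an unadjusted p under 0.05. Slc9a9, Phf21a, Hs3st4, Wls and Gm32647, called with the replicate block, lie among the largest changes at their level.

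Slc9a9, which encodes the sodium-proton exchanger NHE9 of endosomes, was at 92.6, 81.4 and 95.4 CPM in WT, 114, 107 and 120 CPM in Het, and 149, 162 and 131 CPM in KO. The genotypes did not overlap, and Het lay between WT and KO. The KO difference was 0.74 on the log2 scale (SE 0.12) and ranged from 0.64 to 0.84 when single embryos were left out, with an adjusted p of 0.040 with the block in edgeR. Slc9a9 lies at chr9:94669909-95230445 (GRCm38, plus strand), where Gm16262 and Gm47168 overlap it on the other strand.

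Phf21a, which encodes a reader of unmethylated histone H3 in the LSD1-CoREST repressor complex, was at 560, 544 and 561 CPM in WT, 542, 654 and 545 CPM in Het, and 790, 798 and 698 CPM in KO. The lowest KO embryo lay above the highest Het and WT embryos. The KO difference was 0.48 (SE 0.10), with an adjusted p of 0.845 without the block and 0.0436 with it in edgeR. In the runs taken alone it was 0.29 in run 1 and 0.56 in run 2.

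Hs3st4 and Hs3st5 both encode heparan sulphate 3-O-sulfotransferases, and in KO they stood on opposite sides of WT. Hs3st4 stood at 251, 141 and 140 CPM in WT, 317, 145 and 225 CPM in Het, and 355, 183 and 287 CPM in KO, so that KO lay above WT within each replicate number although the genotypes overlapped. Its KO difference was 0.65 (SE 0.27), with an adjusted p of 0.974 without the block and 0.0436 with it in edgeR. It was 1.16 in run 1 alone, 0.43 without KO 1, 0.40 in the nuclei with at least 3 of the 6 genes and 0.02 in those with both Prox1 and Adarb2. Hs3st4 was also a leading gene of group 12, at 1239 CPM against 181 CPM in the other members. Group 12 made up 7.003% of the members of KO 3 and 2.90 to 4.62% elsewhere, with 2.99% in KO 1, where Hs3st4 was highest. Within group 12 Hs3st4 stood at 650 to 1041 CPM in WT and 1159 to 2636 CPM in KO. Its mean was higher in KO in 8 of 12 groups, without overlap in 1 of them. The part of the makeup in the Hs3st4 values was not tested. Hs3st5 stood at 169, 165 and 164 CPM in WT, 261, 190 and 212 CPM in Het, and 111, 117 and 104 CPM in KO, with all KO embryos below and all Het embryos above WT. Its KO difference was -0.56 (SE 0.12, edgeR adjusted p = 0.845, and 0.109 with the block), and -0.32 without the upper limits on UMIs and genes. Without the filter on low counts Hs3st5 was called for KO, at -0.55 and an edgeR adjusted p of 0.0223.

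Wls, the carrier that brings Wnt ligands to the cell surface, was at 82.4, 113 and 96.1 CPM in WT, 86.7, 122 and 111 CPM in Het, and 116, 184 and 132 CPM in KO. The KO difference was 0.60 (SE 0.18) and fell to 0.36 without KO 2. The edgeR adjusted p of Wls was 0.885 without the block and 0.0462 with it. Gm32647, a long noncoding RNA, was at 103, 39.6 and 46.4 CPM in WT, 119, 59.9 and 60.4 CPM in Het, and 49.99, 24.4 and 28.5 CPM in KO. It was lower in KO within each replicate number by -0.81 with the block and overlapped between genotypes. The edgeR adjusted p of Gm32647 was 0.974 without the block and 0.0436 with it. Its level was uneven among the groups, with WT means of 109 CPM in group 2 and 269 CPM in group 9 against 14.8 CPM in group 1. The KO difference was -0.40 without WT 1, 0.0459 in run 1 alone and -0.31 without the upper limits.

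Maml2, Bbx and Nr6a1os had the next lowest p values at 20 CPM or more and were not called with or without the block. Maml2, a coactivator of Notch signalling, was at 128, 116 and 138 CPM in WT and 181, 189 and 160 CPM in KO, with Het between 124 and 141 CPM, and its KO difference of 0.50 was 0.23 in run 1 alone. Bbx, an HMG-box protein gene, was at 99.98, 104 and 99.4 CPM in WT and 172, 134 and 130 CPM in KO. Nr6a1os, which overlaps Nr6a1 on the other strand, was at 47.3, 36.8 and 32.7 CPM in WT and 63.9, 50.6 and 68.5 CPM in KO. In these genes the KO embryos lay above the WT embryos; among all tested genes the KO and WT ranges did not overlap for 1203 (10.5%).

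**Figure D5:**
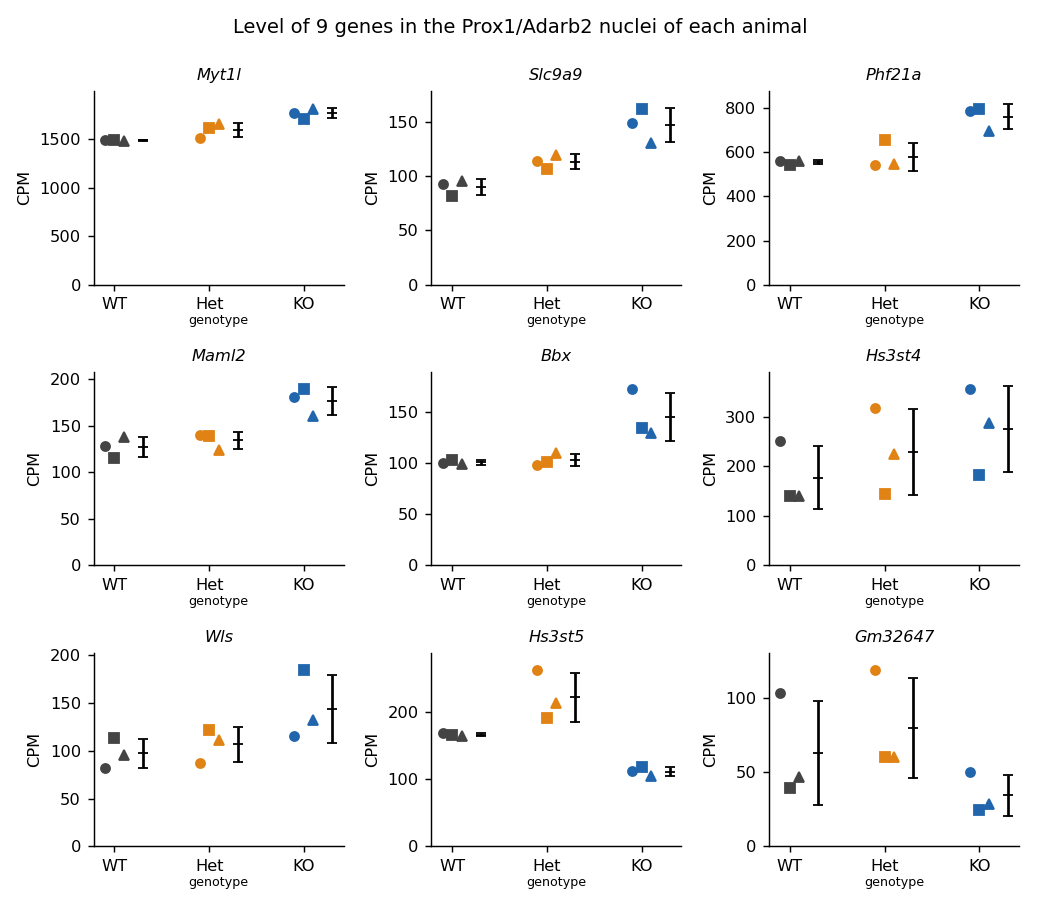
Level (CPM) of Myt1l and 8 further genes in the Prox1/Adarb2 nuclei of each embryo, with mean and SD per genotype and symbols for the replicate number. Slc9a9 averages 89.8 ± 7.4, 114 ± 6.5 and 147 ± 15.9 CPM in WT, Het and KO, whereas Hs3st5 is lowest in KO.

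The promoters of the 4 protein-coding genes called with the block are shown because Myt1l proteins bind DNA through a core of AAGTT. Each is the 250 bases before a RefSeq start (GRCm38.p6, plus strand), in lower case, with every AAGTT on either strand (AACTT when read on the printed strand) in capitals. For Phf21a the start lies 92366 bases from the start of the longest gene model.
Slc9a9, chr9:94669642-94669891: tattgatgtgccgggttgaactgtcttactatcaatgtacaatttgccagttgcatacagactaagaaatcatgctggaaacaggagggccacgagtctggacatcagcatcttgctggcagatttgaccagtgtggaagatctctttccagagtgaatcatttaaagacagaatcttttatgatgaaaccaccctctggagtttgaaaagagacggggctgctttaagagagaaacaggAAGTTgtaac
Phf21a, chr2:92185233-92185482: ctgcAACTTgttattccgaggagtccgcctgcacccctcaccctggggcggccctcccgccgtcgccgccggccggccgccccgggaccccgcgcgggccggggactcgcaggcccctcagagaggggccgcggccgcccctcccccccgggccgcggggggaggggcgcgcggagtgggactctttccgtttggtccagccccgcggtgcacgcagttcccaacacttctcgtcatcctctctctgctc
Wls, chr3:159839400-159839649: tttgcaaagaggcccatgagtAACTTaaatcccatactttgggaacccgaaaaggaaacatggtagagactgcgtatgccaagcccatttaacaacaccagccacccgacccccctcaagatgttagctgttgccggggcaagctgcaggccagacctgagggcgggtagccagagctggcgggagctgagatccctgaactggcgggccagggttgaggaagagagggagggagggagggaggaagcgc
Hs3st4, chr7:123982578-123982827: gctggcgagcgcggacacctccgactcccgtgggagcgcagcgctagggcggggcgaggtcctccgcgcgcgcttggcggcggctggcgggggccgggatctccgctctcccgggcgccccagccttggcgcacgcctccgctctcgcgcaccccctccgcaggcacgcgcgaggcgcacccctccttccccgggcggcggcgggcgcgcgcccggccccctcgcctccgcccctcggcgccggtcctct
The windows of Slc9a9, Phf21a and Wls each held 1 match and that of Hs3st4 held 0. Of all 32851 promoter windows of this length, 35.3% held at least 1, so that a match is a description and not a site.

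Slc9a9 and Phf21a had higher KO than WT means in most of the groups. They were named from sums over these same nuclei, so the counts of groups are a description and not further support. The share of all genes with such counts was not computed. Among the other genes called with the block, Wls was higher in KO in 9 of 12 groups, without overlap in 3, and Hs3st4 in 8, without overlap in 1. Gm32647, called lower in KO, was higher in 4 of 12. The mean of Slc9a9 was higher in KO than in WT in 11 of 12 groups, and in 4 of them the lowest KO embryo lay above the highest WT embryo. In group 1 it was at 72.8 to 75.8 CPM in WT and 139 to 186 CPM in KO, and in group 8 at 93.4 to 206 and 281 to 430 CPM. In group 6, the one led by Edar and Fgf15, it was at 68.5 CPM in WT and 57.4 CPM in KO. Phf21a was higher in KO in 12 of 12 groups, without overlap in 7. In group 9 it stood at 214 to 306 CPM in WT and 481 to 611 CPM in KO, and in group 1 at 586 to 782 and 817 to 996 CPM. Groups 3 and 1, with 3 and 4 of the 14 CGE markers, were among the 7 without overlap, while in group 10, also with 4, it stood at 629 to 980 and 644 to 979 CPM.

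Slc9a9, Phf21a and Hs3st5 were set beside the other inhibitory nuclei of these embryos. Slc9a9 was at 66.4, 70.7 and 66.5 CPM in WT and 118, 105 and 97.5 CPM in KO of the Lhx6 or Nxph2 nuclei, and at 83.9, 85.6 and 85.3 against 130, 128 and 116 CPM in the Ebf1 or Six3 nuclei. Its KO differences were 0.74, 0.68 and 0.57 on the log2 scale in the 3 sets. Those of Phf21a were 0.48, 0.51 and 0.49, and those of Hs3st5 were -0.56, -0.08 and -0.03. When the difference in KO effect was tested as a class-by-genotype term, 0 of 11988 genes (0%) were called against the Lhx6 or Nxph2 nuclei and 0 of 11983 (0%) against the Ebf1 or Six3 nuclei in edgeR, with 476 (3.97%) and 456 (3.81%) at an unadjusted p under 0.05. DESeq2 was not run on these terms. No KO effect particular to the Prox1/Adarb2 nuclei was therefore called in this fit. Without the filter on low counts 7 genes were called against the Lhx6 or Nxph2 nuclei and 10 against the Ebf1 or Six3 nuclei. Against the Lhx6 or Nxph2 nuclei 1 gene was called without WT 3 and 1 without KO 3.

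No gene of the lists below was called in KO without the block, and their counts at an unadjusted p under 0.05 stand against 567 of all 11408 tested genes (4.97%), 287 higher and 280 lower. With the replicate block, against 7.49% of all genes, such a p was found for 6 of 32 transcription factors, 9 of 53 genes of migration and guidance, 10 of 39 ion channels, 8 of 38 genes of synaptic adhesion and release, 4 of 30 glutamate and serotonin receptor genes, 2 of 22 genes of GABA and glycine signalling, 4 of 26 genes of maturation, 3 of 15 Notch and proneural genes, 3 of 12 genes of the Myt family and its partners and 0 of 9 CGE markers, with Phf21a the 1 gene among them that was called. The counts by direction below are without the block. Of 32 transcription factors of inhibitory neurons tested, 2 had such a p, both higher, with a median log2 change of 0.09 against -0.0017 over all genes. They were Nfia, a factor of glial and neuronal differentiation, at 665, 631 and 683 CPM in WT and 886, 979 and 686 CPM in KO, and Rorb, a nuclear receptor. Dlx2, needed for interneuron migration and specification, stood at a log2 change of 0.16. Of the 9 tested CGE markers outside the rule, 0 had an unadjusted p under 0.05 in KO or Het, and 7 were higher in KO, with a median of 0.12. Sp8 averaged 29.5, 27.1 and 29.0 CPM in WT, Het and KO embryos.

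Of 53 genes of migration and axon guidance tested, 4 had an unadjusted p under 0.05 and were lower in KO and 0 were higher, against 4.97% of all genes, with a median of -0.02. They were the semaphorin receptor Nrp2, the netrin receptor Unc5c, the neuregulin ligand Nrg2 and the GDNF receptor Gfra1. Unc5c was at 428, 420 and 382 CPM in WT and 307, 297 and 301 CPM in KO, a difference of -0.42 (SE 0.17). Nrg2 was at 72.3, 78.1 and 70.6 CPM in WT and 49.1, 36.8 and 60.2 CPM in KO. Erbb4, the receptor of neuregulins, was at 11533 CPM in WT and 11460 CPM in KO, and the slit receptor Robo1 at 2758 and 2602 CPM.

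Among ion channels, 4 of 39 had an unadjusted p under 0.05 and were lower in KO and 1 was higher, against 4.97% of all genes, with a median of -0.06. The lower ones were the calcium channel subunits Cacna1b and Cacna1d, the potassium channel Kcnq5 and the ryanodine receptor Ryr2. Cacna1b was at 278, 268 and 276 CPM in WT and 222, 220 and 222 CPM in KO, without overlap. The higher one was the sodium channel Scn1a, at 128, 109 and 112 CPM in WT and 161, 133 and 155 CPM in KO. Of 38 genes of synaptic adhesion and release, 3 were lower and 1 was higher at that p, against the same 4.97%, with the adhesion molecule Cntn4 at 247, 193 and 217 CPM in WT and 150, 138 and 138 CPM in KO and the SNARE protein gene Snap25 as the higher one.

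Of 30 glutamate and serotonin receptor genes tested, 1 was higher and 1 lower at an unadjusted p under 0.05 in KO, against 4.97% of all genes. Gria4, an AMPA receptor subunit of interneurons, was at 951, 973 and 888 CPM in WT, 1157, 1003 and 1055 CPM in Het, and 1353, 1183 and 1136 CPM in KO, without overlap between KO and WT and with a KO difference of 0.41 (SE 0.10, edgeR adjusted p = 0.845). Grin3a, an NMDA receptor subunit, was the lower one. Of 22 genes of GABA and glycine signalling, 1 was higher, the glycine receptor Glra2, at 157, 135 and 123 CPM in WT and 176, 154 and 201 CPM in KO. Of 26 genes of neuronal maturation, Elavl4 was higher and Mapt lower.

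Of 15 Notch and proneural genes tested, 3 were higher in KO at an unadjusted p under 0.05, Maml2 and Rbpj among them, and 0 were lower, against 287 of 11408 higher over all genes, with a median of 0.11. Of 12 genes listed for the Myt family and its partners, without Myt1l itself, 2 were higher at that p, with a median of 0.20 over the list. They were Phf21a and the zinc finger gene Zbtb20, the latter at 1088, 1071 and 960 CPM in WT and 1227, 1453 and 1135 CPM in KO. The paper names both as dysregulated in deep layer excitatory neurons at E14, from the same embryos, so the 2 are not independent evidence. The paralogs Myt1 and St18 stood at 0.21 and 0.33. Of 8 genes that earlier results of these libraries had shown higher in other KO nuclei, 8 were higher here and 5 had an unadjusted p under 0.05. Of 6 shown lower, 0 were higher and 2 had such a p. These lists were chosen on the same embryos and are not independent evidence of direction.

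Among 6 tested genes of stress and RNA quality, the nuclear noncoding RNA Meg3 was lower in KO at an unadjusted p under 0.05, at 5262, 4003 and 4035 CPM in WT and 2910, 2995 and 4007 CPM in KO. The summed level of progenitor markers was between 261 and 290 CPM in WT, between 231 and 301 CPM in Het, and between 270 and 313 CPM in KO embryos. MGE markers summed to 2694 to 3374, 2618 to 3523 and 2983 to 3284 CPM in the same order. Excitatory markers summed to 114 to 132, 101 to 137 and 108 to 192 CPM. Diencephalic markers summed to 108 to 171 CPM in WT and 87.4 to 169 CPM in KO, and to 134 to 248 CPM in Het. Summed olfactory bulb lineage markers ranged from 2195 to 2751 CPM across WT embryos, from 2201 to 2882 CPM across Het embryos and from 2008 to 2262 CPM across KO embryos, and 0 of the 5 tested were higher in KO, with a median log2 change of -0.19. The part of these lists in the differences above was not tested.

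Between Het and WT, 0 of 11408 genes (0%) were called by edgeR, with 334 (2.93%) at an unadjusted p under 0.05. DESeq2, on 31257 genes, called 0, with 95 at such a p. With the replicate block in edgeR 0 were called and 531 had such a p. The ranges of Het and WT did not overlap for 999 genes (8.76%). The lowest p values at 20 CPM or more included those of Hs3st5, Fstl4, Ehbp1l1, Dpf1 and Metap1, with edgeR adjusted p values of 0.999. Fstl4, a secreted follistatin family protein, was at 24.3, 16.4 and 28.8 CPM in WT and 45.6, 40.6 and 41.4 CPM in Het, a difference of 0.92 (SE 0.26), and at 57.4, 25.3 and 47.7 CPM in KO. Its Het difference was 1.45 in the nuclei with both Prox1 and Adarb2, and without the filter on low counts it was called, at an edgeR adjusted p of 0.00852. Hs3st5 differed by 0.45 (SE 0.12), but by -0.19 in run 1 alone, 0.68 in run 2 alone, 0.17 with at least 3 of the 6 genes and 0.09 with both Prox1 and Adarb2, and Dpf1, a subunit of the neuronal chromatin remodeller BAF, by -0.42 (SE 0.12), but by -0.22 without the upper limits, -0.27 in run 1 alone and -0.64 with at least 3 of the 6 genes.

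Slc9a9 differed by 0.37 (SE 0.12) in Het, and by 0.23 in run 1 alone and 0.22 in the nuclei with both Prox1 and Adarb2. Phf21a differed by 0.10 (SE 0.10), and by -0.032 in run 1 alone and -0.0077 without Het 2. Against 2.93% of all genes at an unadjusted p under 0.05 in Het, 3 of the 30 glutamate and serotonin receptor genes had such a p, all higher, 1 of the 53 migration genes, higher, 2 of the 39 ion channels, 1 in each direction, and 0 of the 32 transcription factors. Their median log2 changes were 0.03, 0.05, 0.07 and -0.005.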

How the data were processed

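The authors mapped reads to mm10 with the barcoding kit's own pipeline and deposited estimated counts (expected counts) of UMIs per gene and nucleus; 6.7 to 8.71% of entries per library were not whole, for which no reason is given in the sources used here, and neither is the annotation release or the use of strand in counting. The submitters' processing notes name Seurat 4.3.0, DESeq2 1.38.3 and Scanpy 1.12.0. Genes that overlap others are uncertain. Barcode and gene lists carry no measurements.

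Groups came from the sample titles. Library totals were 25300676 to 93334845 UMIs. Counts were summed per embryo over both runs, rounded, and tested with edgeR 4.0.16 (R 4.3.3; TMM, filterByExpr, quasi-likelihood, genotype only, all 9 embryos); calls needed a Benjamini-Hochberg adjusted p under 0.05 and a log2 fold change beyond 0.2. The class-by-KO terms carried a term per embryo. DESeq2 1.42.0 was an alternative. Whether the embryos came from separate litters by number is not stated: the study names 3 litters, so p values measure the spread between these embryos. Same-numbered embryos correlated in their deviations from the genotype means at 0.32, 0.156 and 0.102 for WT with KO, which pairs them by the rule used here (every r over 0.1) although WT 3 correlated more with KO 2 (0.121) than with KO 3, and at 0.368, 0.175 and 0.067 for WT with Het, which does not.

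Shares were compared by exact permutation tests. Members were clustered with scanpy 1.11.5 (2000 variable genes, 30 components, 20 neighbours, Leiden resolution 0.5). Doublets were scored with Scrublet per library. Its automatic threshold marked 0% of nuclei in 4 libraries and up to 14.95% in others, so doublets were kept, and an alternative dropped the 5% highest scores, 115 members among them. Per contrast, named genes were called autosomal genes of at least 20 CPM outside the rule or, with fewer than 6 calls, the 6 lowest p values, besides Myt1l, genes called with the block and list members. Some genes that this rule names are not reported here. Gene positions come from GENCODE vM21 (GRCm38), which held 54587 of 55335 identifiers with their version. The members and gene lists were chosen with earlier results of these data known. Alternatives are described in the closing section.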

Additional observations from a re-analysis of the deposited data

Results flagged for a closer look

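Hs3st5 was higher in Het than in WT in the Prox1/Adarb2 nuclei, by 0.45 on the log2 scale, and every Het embryo lay above the WT mean. The difference turned to -0.19 in run 1 alone and was 0.68 in run 2 alone, 0.17 with at least 3 of the 6 genes and 0.09 with both Prox1 and Adarb2. In the Lhx6 or Nxph2 nuclei every Het embryo lay below the WT mean, at 41.8, 45.4 and 39.9 CPM against 65.8, 65.6 and 24.1 CPM in WT. Metap1 was lower in Het in the Prox1/Adarb2 nuclei, by -0.65 (-1.22 with both Prox1 and Adarb2), at 22.5, 16.9 and 19.0 CPM against 31.1, 32.8 and 30.1 CPM, while in the Ebf1 or Six3 nuclei every Het embryo lay above the WT mean, at 29.4, 27.8 and 30.9 CPM against 29.4, 29.8 and 23.9 CPM. The difference between these sets of nuclei was not tested for Het.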

How the results depend on the processing

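The replicate block raised the KO count from 0 to 5 genes and left the Het count at 0. In the shares, pairing by replicate number gave the same differences, at p = 0.75 for KO and 0.25 for Het in an exact sign-flip test. The smallest p that 3 pairs allow in this test is 0.25, so it cannot be set beside the unpaired p. Without a filter on low counts 21 genes were called for KO, 15 for Het, 7 for the KO effect against Lhx6 or Nxph2 nuclei and 10 against Ebf1 or Six3 nuclei. With at least 3 of the 6 markers 1 gene, Slc9a9, was called for KO. Leaving out single embryos gave 0 to 1 genes against the Lhx6 or Nxph2 nuclei (1 without WT 3 and 1 without KO 3) and KO share differences from -0.003 (without KO 2) to 0.33 percentage points; run 1 alone gave -0.19. In run 1 alone Hs3st5 was at -0.19 and Phf21a at -0.032 for Het, and Gm32647 at 0.0459 for KO. For these reversals the cause was not tested. Of the remaining alternatives for counts and shares, 112 kept the direction and side of the threshold. For the shares that side was fixed beforehand, since an exact p of 3 against 3 cannot fall under 0.1. Some of them moved the Het and WT ranges from apart to overlapping, as given above. With inhibitory nuclei as denominator, leaving out single embryos gave differences of 0.20 to 0.79 points for KO and 0.63 to 1.22 for Het, lowest without WT 2. This, the thinning of the inhibitory nuclei and the restriction to nuclei of at least 1500 UMIs were chosen after seeing the data; the other settings were DESeq2, its size factors, 6 embryos only, no terms per embryo, either run, a ratio limit of 0.9, doublet scores, both Prox1 and Adarb2, and no upper limits. The smallest sum held 1080940 UMIs, and the size of change that could be called in genes at low levels is not reported here.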
